A study of Homo sapiens with 6 samples.

Results

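Selenoproteins are proteins that carry selenocysteine, an amino acid with selenium in place of the sulphur of cysteine. Of the 10 genes described here, SEPHS2, PSTK, SEPSECS, SECISBP2 and EEFSEC make or decode selenocysteine, and SEPHS1 is a paralog of SEPHS2. The others, SEPW1, SEP15, SELT and SELK, encode small selenoproteins, and SEPHS2 is a selenoprotein itself. They were chosen by gene name out of 26286 genes listed, and all 10 were among the 14839 genes with enough reads to be tested. For 9 of them the name was found as such. SEP15 stands in the files under a name that a spreadsheet had turned into a date, and that 1 gene was found by its Ensembl identifier, ENSG00000183291, and its description.

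RNA was sequenced from HT-1080, an established human fibrosarcoma cell line, after 48 h in 1 of 3 conditions. Cells received pimasertib at 500 nM, which blocks the kinases MEK1/2, palbociclib at 2 µM, which blocks CDK4/6, or the solvent DMSO. Each condition had 2 libraries, and all libraries came from this 1 line without any genetic change named in the labels. The labels do not say whether the libraries of a group came from separate cultures, so the p-values measure the spread between these libraries only, which may be technical.

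Selenocysteine is inserted at the codon UGA, which otherwise ends translation. SEPHS2 makes the selenium donor selenophosphate, PSTK phosphorylates the serine first loaded on the selenocysteine tRNA, and SEPSECS exchanges that phosphoserine for selenocysteine. On the mRNA, SECISBP2 binds a hairpin downstream of the coding sequence, the SECIS element, and the elongation factor EEFSEC brings the charged tRNA to the ribosome at the UGA. A UGA well upstream of the last exon junction can also be taken for a premature stop, which exposes selenoprotein mRNAs to nonsense-mediated decay.

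The codon that sets these proteins apart is shown for the 5 selenoproteins among the 10 genes and for SEPHS1, the paralog of SEPHS2. The coding sequence around it comes from GENCODE transcripts on GRCh38, 5′ to 3′ on the gene's own strand, matched by Ensembl identifier. Capitals mark the selenocysteine codon, or in SEPHS1 the codon aligned with it.
SEPHS2: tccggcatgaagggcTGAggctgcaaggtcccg
SEPHS1: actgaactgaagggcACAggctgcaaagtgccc
SEPW1: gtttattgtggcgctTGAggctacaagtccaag
SEP15: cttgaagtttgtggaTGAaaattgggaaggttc
SELT: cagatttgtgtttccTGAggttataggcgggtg
SELK: ccaatggctggtggaTGAggaaggtaa

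In SEPHS2 the capitals are codon 60, at chr16:30445548-30445550 on the minus strand, in a gene of 1 exon. The aligned codon of SEPHS1 is codon 29, at chr10:13344864-13344866 on the minus strand. It is a threonine codon, so SEPHS1 is no selenoprotein although its flanking sequence follows that of SEPHS2. The codon is early in SEPW1, at codon 13 of 87 (chr19:47780732-47780734, plus strand), and in SELT, at codon 49 of 195 (chr3:150622392-150622394, plus strand). In SEP15 it is codon 96 of 165 (chr1:86880690-86880692, minus strand). In SELK it is codon 92 of 94 (chr3:53885831-53885833, minus strand), and the window ends with the true stop codon.

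The 6 libraries held 13607490 to 17500655 counts, and 3 counts in a library correspond to 0.168 to 0.220 CPM (counts relative to the library total after TMM scaling). The proliferation genes MKI67 and CCNA2 fell in both drugs and the ERK target SPRY4 fell with pimasertib (edgeR), while DUSP6, another ERK target, was at most 0.473 CPM in any library and not tested. Of the 6 mesenchymal markers, VIM, FN1 and CDH2 were abundant in every library, THY1 was at most 0.304 CPM, and S100A4 was at most 0.744 CPM outside palbociclib replicate 2. PDGFRB had 49.7 and 56.0 CPM with pimasertib, 3.81 and 4.87 CPM with palbociclib, and 2.25 and 6.02 CPM in DMSO. FN1, CDH2 and PDGFRB rose with pimasertib against DMSO (edgeR). VIM went the other way, with 672 and 512 CPM with pimasertib, 1191 and 1040 CPM with palbociclib, and 999 and 988 CPM in DMSO. It was called lower with pimasertib against palbociclib only (edgeR). The part of these marker differences in the pimasertib values below was not tested. Summed leukocyte markers reached 0.980 CPM and summed endothelial markers 1.34 CPM at most. Palbociclib replicate 2 stood apart. It held 27 genes above 3 CPM that were more than 8-fold higher than in every other library, no such gene was found for the other 5 libraries, and none of the 10 genes was among them. Of 5 epithelial markers 4 are listed in the files, and they summed to 11.9 CPM there, mostly KRT19 at 9.18 CPM, against 1.90 to 3.45 CPM in the other libraries. GENCODE names 11 pseudogene copies of SEPHS1, SEPHS2, SEPW1, SELT and SELK, 2 of which are listed in the files with at most 3 counts a library, so reads shared with such copies were not resolved. Mitochondrially encoded genes took 3.21% to 8.76% of counts, more in replicate 2 than in replicate 1 of each group.

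None of the 10 genes passed the test in any of the 3 comparisons (edgeR's quasi-likelihood test, two-sided, Benjamini-Hochberg adjustment over all 14839 tested genes, threshold 0.05). With pimasertib against DMSO, 22.8% of all tested genes passed, with palbociclib against DMSO 3.54%, and with pimasertib against palbociclib 9.39%. At an unadjusted p under 0.05, pimasertib against DMSO had 2 of the 10, SEPHS1 and SEPW1, where 36.5% of all tested genes lay below that value. Palbociclib against DMSO and pimasertib against palbociclib had 0 of the 10 each, where 18% and 24.7% of all tested genes did. DESeq2 called 1 gene, SEPW1, in pimasertib against DMSO and 0 in the other comparisons. For the comparisons with pimasertib, its share of all tested genes is not given, here or for the lists below. The typical size of a change in these 10 genes was below that of all tested genes in both comparisons with pimasertib, and near it with palbociclib against DMSO. Their median absolute log2 fold change was 0.30 with pimasertib against DMSO, beside 0.53 over all tested genes. With palbociclib against DMSO it was 0.30, beside 0.33 over all tested genes, and with pimasertib against palbociclib 0.30, beside 0.41. With the replicate number as a term in the model, 3 of the 10 passed in pimasertib against DMSO (SEPW1, SEPHS1 and SELT), 1 in palbociclib against DMSO (SELK) and 1 in pimasertib against palbociclib (SEPHS2). Of all tested genes that model called 6551 in pimasertib against DMSO (44.1%, and 3376 without the term), 2953 in palbociclib against DMSO (19.9%, and 526 without it) and 4702 in pimasertib against palbociclib (31.7%, and 1393 without it).

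**Figure D1:**
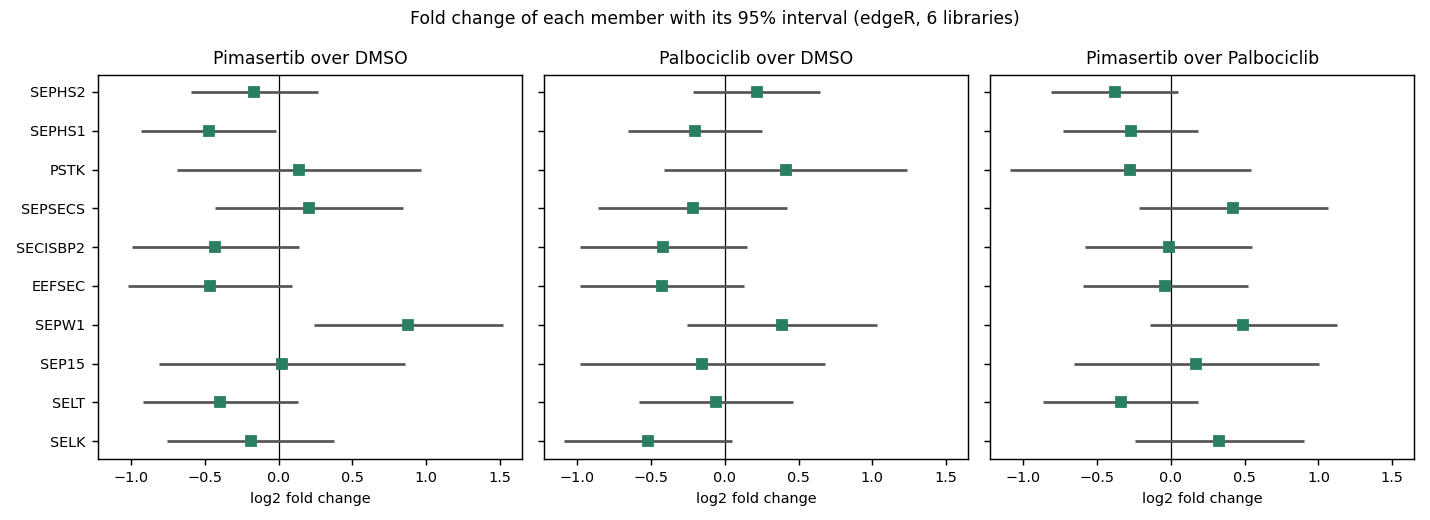
Log2 fold change of each of the 10 genes (points) with its 95% interval (bars) in the 3 comparisons. Every interval includes 0 except those of SEPW1, from 0.24 to 1.52, and SEPHS1, from -0.93 to -0.02, with pimasertib against DMSO.

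SEPHS2 and SEPHS1 both had their lowest mean level with pimasertib. SEPHS2 (ENSG00000179918, GRCh37 chr16:30454952-30457502, minus strand) had 56.1 and 47.1 CPM with pimasertib, 68.2 and 66.1 CPM with palbociclib, and 57.4 and 58.2 CPM in DMSO. The 3 groups did not overlap: palbociclib was highest and pimasertib lowest. On the log2 scale the fold change was -0.16 ± 0.19 (SE) with pimasertib against DMSO (adjusted p = 0.578, edgeR) and 0.22 ± 0.19 with palbociclib against DMSO (adjusted p = 0.621). Pimasertib against palbociclib gave -0.38 ± 0.19, with a 95% interval from -0.81 to 0.05 (adjusted p = 0.256). The adjusted p of that last difference was 0.0397 with the replicate number as a term. In such bulk samples, fewer cells of a type and less RNA per cell cannot be told apart.

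SEPHS1 (ENSG00000086475, GRCh37 chr10:13359424-13390297, minus strand) is expressed beside SEPHS2 but is not known to make selenophosphate. It had 53.8 and 45.7 CPM with pimasertib, 66.5 and 53.7 CPM with palbociclib, and 71.5 and 66.8 CPM in DMSO. Both DMSO libraries were above the other 4, and the drug groups overlapped by a narrow margin. Against DMSO, the log2 fold change with pimasertib was -0.47 ± 0.21 (95% interval -0.93 to -0.02, adjusted p = 0.124, edgeR) and with palbociclib -0.20 ± 0.21 (adjusted p = 0.665). Its adjusted p with pimasertib was 0.00808 with the replicate number as a term. Both comparisons share the DMSO libraries.

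Neither enzyme of the tRNA steps was called. PSTK (ENSG00000179988, GRCh37 chr10:124713897-124757029, plus strand), the kinase that acts on the seryl-tRNA, had 3.57 and 5.63 CPM with pimasertib, 5.79 and 5.32 CPM with palbociclib, and 3.34 and 5.005 CPM in DMSO. Both palbociclib libraries were above both DMSO libraries, while the pimasertib libraries overlapped both other groups. The fold change on the log2 scale was 0.14 ± 0.37 with pimasertib (adjusted p = 0.814, edgeR) and 0.41 ± 0.37 with palbociclib (95% interval -0.41 to 1.24, adjusted p = 0.62). These values rest on 55 to 95 counts a library. PSTK also overlaps IKZF5 and C10orf88 on the opposite strand. The strand setting of the counting was not stated in the labels or file headers. Whether reads of genes that overlap on opposite strands were told apart is therefore not known. Overlaps here and below are of whole gene spans, introns included, and overlap of exons was not checked.

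SEPSECS (ENSG00000109618, GRCh37 chr4:25121627-25162204, minus strand), the enzyme that completes selenocysteine on the tRNA, had 8.30 and 8.67 CPM with pimasertib, 5.28 and 7.34 CPM with palbociclib, and 7.41 and 7.30 CPM in DMSO. Pimasertib was highest, and 1 palbociclib library was lowest while the other matched DMSO. For SEPSECS the log2 fold change was 0.20 ± 0.29 with pimasertib (adjusted p = 0.642, edgeR) and -0.22 ± 0.29 with palbociclib (adjusted p = 0.757). Pimasertib against palbociclib gave 0.42 ± 0.29, with a 95% interval from -0.22 to 1.06 (adjusted p = 0.395).

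Both decoding factors had their highest values in DMSO. SECISBP2 (ENSG00000187742, GRCh37 chr9:91933421-91974557, plus strand), which binds the SECIS element, had 20.2 and 34.5 CPM with pimasertib, 28.2 and 27.0 CPM with palbociclib, and 36.3 and 37.3 CPM in DMSO. All 4 drug libraries were below both DMSO libraries, and the pimasertib libraries lay far apart. On the log2 scale the fold change was -0.43 ± 0.25 with pimasertib (95% interval -0.99 to 0.14, adjusted p = 0.25, edgeR) and -0.41 ± 0.25 with palbociclib (95% interval -0.98 to 0.15, adjusted p = 0.437). Leaving out pimasertib replicate 2 gave -0.86 with pimasertib, and leaving out replicate 1 of that group gave -0.10, neither past the threshold.

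EEFSEC (ENSG00000132394, GRCh37 chr3:127872297-128127485, plus strand), the elongation factor, had 14.3 and 10.9 CPM with pimasertib, 12.8 and 13.1 CPM with palbociclib, and 19.7 and 15.1 CPM in DMSO. Again all 4 drug libraries were below both DMSO libraries. The fold change on the log2 scale was -0.46 ± 0.25 with pimasertib (95% interval -1.02 to 0.09, adjusted p = 0.211, edgeR) and -0.43 ± 0.25 with palbociclib (95% interval -0.98 to 0.13, adjusted p = 0.413). Pimasertib against palbociclib gave -0.04 ± 0.25 for EEFSEC and -0.01 ± 0.26 for SECISBP2, with 95% intervals of -0.59 to 0.52 and -0.58 to 0.55. EEFSEC overlaps RUVBL1 on the opposite strand, which had 1465 to 2785 counts a library beside 169 to 325 for EEFSEC.

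SEPW1 showed the largest change of the 10 genes with pimasertib. SEPW1 (now SELENOW, ENSG00000178980, GRCh37 chr19:48281829-48287943, plus strand) encodes a small thioredoxin-fold selenoprotein. It had 26.1 and 27.3 CPM with pimasertib, 13.1 and 24.8 CPM with palbociclib, and 14.0 and 15.01 CPM in DMSO. Both pimasertib libraries were above all others, the DMSO libraries were close together, and the palbociclib libraries divided, 1 below DMSO and 1 near pimasertib. Pimasertib averaged 26.7 ± 0.843 CPM and DMSO 14.5 ± 0.692 CPM (SD, n = 2 each), a fold of 1.84. Its log2 fold change was 0.88 ± 0.29 (95% interval 0.24 to 1.52), and its adjusted p of 0.0518 (edgeR) missed the threshold.

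That SEPW1 value lay so near the threshold that most other settings put it past it. Pimasertib against DMSO had an adjusted p of 0.0466 with RLE scaling, 0.0458 with raw library totals and 0.0347 with DESeq2. It was 0.0040 with the replicate number as a term. It did not pass without DMSO replicate 1 (0.149), DMSO replicate 2 (0.0596), pimasertib replicate 1 (0.151) or pimasertib replicate 2 (0.215), fits in which the lone library of a group is assumed to vary like the other groups. The log2 fold change itself lay between 0.83 and 0.92 in the 6 fits that each left out 1 library. In the authors' deposited table SEPW1 has a log2 fold change of 0.854 with pimasertib and an adjusted p of 0.0171, the only 1 of the 10 genes called there, and none is called with palbociclib. The share of all genes that the authors called was not counted.

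For palbociclib, SEPW1 rested on 1 library. The log2 fold change against DMSO was 0.39 ± 0.29 (95% interval -0.25 to 1.03, adjusted p = 0.537, edgeR). It was -0.12 without palbociclib replicate 2 and 0.77 without palbociclib replicate 1. Pimasertib against palbociclib gave 0.49 ± 0.29 (adjusted p = 0.319), 1.05 without palbociclib replicate 2 (adjusted p = 0.0392) and 0.10 without palbociclib replicate 1 (adjusted p = 0.956). Replicate 2 is the library with KRT19 at 9.18 CPM and S100A4 at 5.71 CPM, against at most 0.403 and 0.744 CPM elsewhere. Of the epithelial markers EPCAM had 5 counts there and CDH1 0, and their part in the SEPW1 value was not tested.

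SEP15 (now SELENOF, GRCh37 chr1:87328132-87380107, minus strand) encodes an endoplasmic reticulum selenoprotein that binds the folding sensor UGGT1. It had 118 and 153 CPM with pimasertib, 90.9 and 149 CPM with palbociclib, and 79.4 and 187 CPM in DMSO. All 3 groups overlapped, and both the lowest and the highest library were DMSO. On the log2 scale the fold change was 0.02 ± 0.37 with pimasertib (95% interval -0.81 to 0.85, adjusted p = 0.971, edgeR) and -0.15 ± 0.37 with palbociclib (95% interval -0.98 to 0.68, adjusted p = 0.88). With pimasertib it was -0.47 without DMSO replicate 1 and 0.76 without DMSO replicate 2, so its sign followed the DMSO library used.

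SELT (now SELENOT, ENSG00000198843, GRCh37 chr3:150320662-150348222, plus strand), a thioredoxin-fold protein of the endoplasmic reticulum, had 144 and 129 CPM with pimasertib, 147 and 197 CPM with palbociclib, and 158 and 200.1 CPM in DMSO. Both pimasertib libraries were below the other 4, and palbociclib overlapped DMSO. The fold change on the log2 scale was -0.40 ± 0.24 with pimasertib (95% interval -0.92 to 0.13, adjusted p = 0.254, edgeR) and -0.06 ± 0.24 with palbociclib (adjusted p = 0.932). Its adjusted p with pimasertib was 0.0449 with the replicate number as a term. SELT overlaps SERP1 on the opposite strand, which had 4146 to 6912 counts a library beside 1989 to 3524 for SELT.

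SELK (now SELENOK, ENSG00000113811, GRCh37 chr3:53918437-53926015, minus strand), a small membrane protein that acts with the palmitoyltransferase ZDHHC6, had 21.2 and 23.6 CPM with pimasertib, 14.5 and 21.1 CPM with palbociclib, and 21.4 and 29.7 CPM in DMSO. Both palbociclib libraries were below both libraries of each other group, while pimasertib overlapped DMSO. For SELK the log2 fold change was -0.52 ± 0.26 with palbociclib (95% interval -1.09 to 0.05, adjusted p = 0.324, edgeR) and -0.19 ± 0.25 with pimasertib (adjusted p = 0.627). Its adjusted p with palbociclib was 0.0470 with the replicate number as a term.

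**Figure D2:**
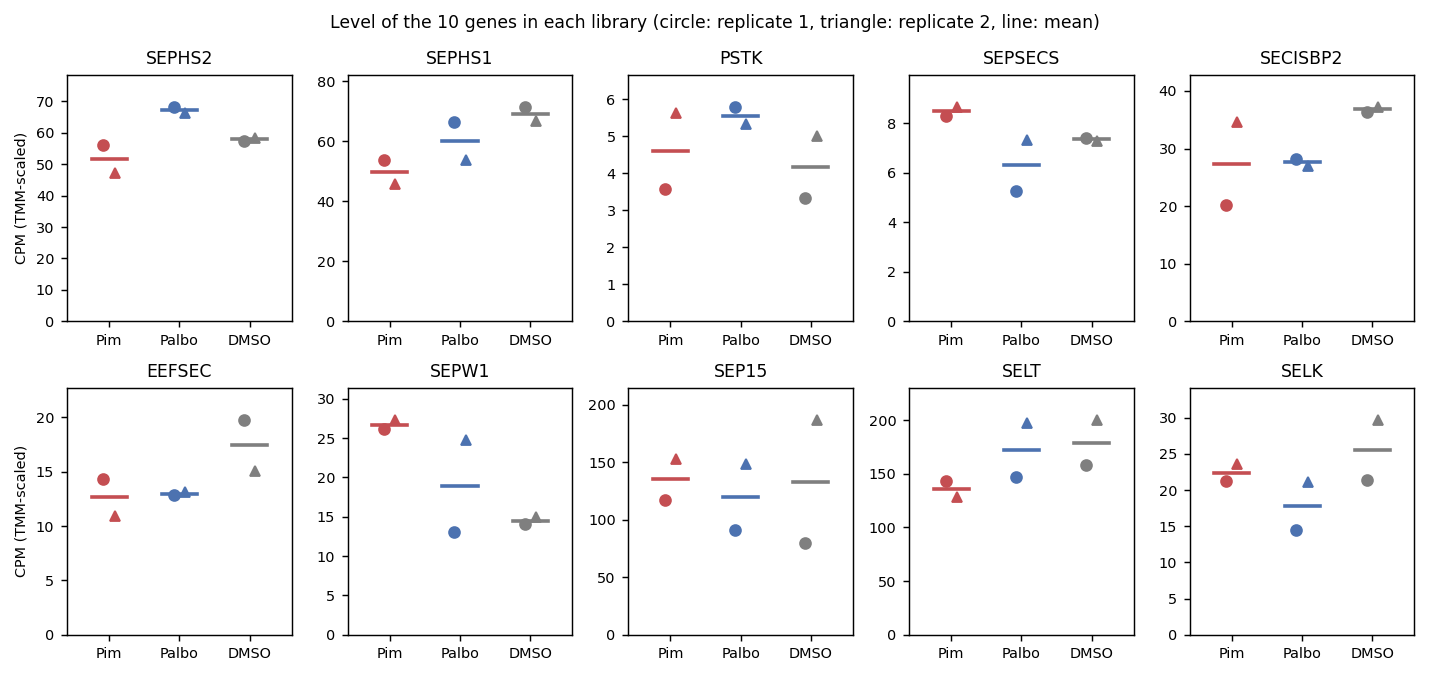
CPM of each of the 10 genes in each of the 6 libraries, by group, with 1 point a library. SEPW1 is above every other library in both pimasertib libraries, while SEP15 has both its lowest and its highest value in DMSO.

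Groups that do not overlap were common in these data, and the 10 genes had about as many as other genes. With pimasertib against DMSO, 7 of the 10 had groups that did not overlap (64.2% of all tested genes), 2 higher (31.6% of all tested genes) and 5 lower (32.6%). With palbociclib against DMSO it was 6 of the 10 (46.8% of all tested genes), 2 higher (23.5%) and 4 lower (23.3%). With pimasertib against palbociclib it was 5 of the 10 (56.5%), 3 higher (28.8%) and 2 lower (27.7%). In 3 of the 10, SEPHS1, SECISBP2 and EEFSEC, every library of both drugs was below both DMSO libraries, as in 15.7% of all tested genes. Both comparisons use the same 2 DMSO libraries.

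The largest differences between the 2 libraries of a group were those of SEP15 in DMSO and SEPW1 with palbociclib. For SEP15, replicate 2 was above replicate 1 by a log2 ratio of 0.38 with pimasertib, 0.71 with palbociclib and 1.23 in DMSO. SELK was also higher in replicate 2 of every group, by 0.15 with pimasertib, 0.54 with palbociclib and 0.47 in DMSO. SEPHS1 was lower in replicate 2 of every group, at -0.24 with pimasertib, -0.31 with palbociclib and -0.10 in DMSO. SECISBP2 differed within pimasertib alone, at 0.78 against -0.06 with palbociclib and 0.04 in DMSO, and SEPW1 differed within palbociclib, at 0.93 against 0.06 with pimasertib and 0.10 in DMSO. Replicate 2 also had the higher mitochondrial share in each group, and the part of that difference in these ratios was not tested.

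**Figure D3:**
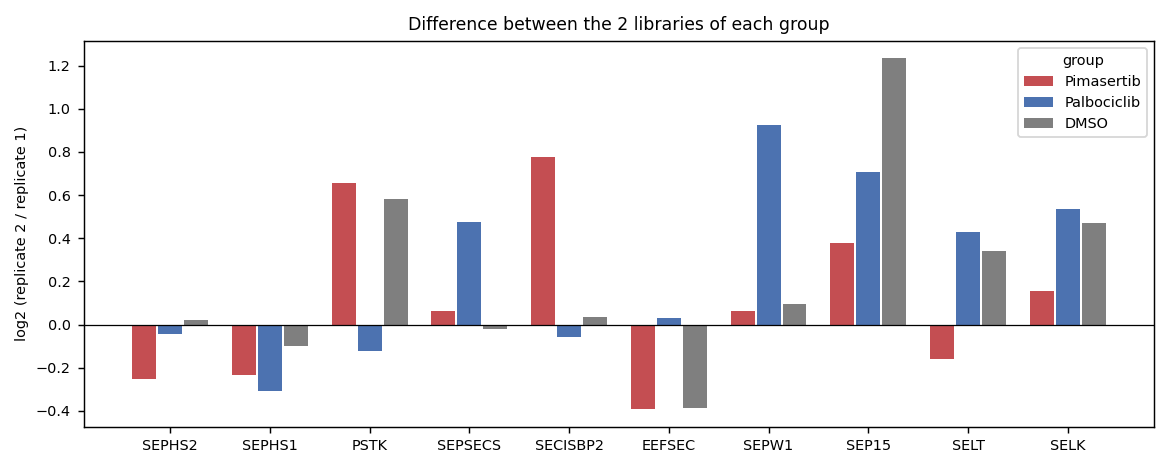
Log2 ratio of the CPM of replicate 2 over replicate 1 for each of the 10 genes (bars), by group. SEP15 reaches 1.23 in DMSO and is positive in all 3 groups, and SEPW1 stands out with 0.93 in palbociclib.

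Per length, SEP15 and SELT had the highest levels. On the scale of CPM per kilobase of the deposited gene length, SEP15 had 72.8 ± 23.0 (SD over the 6 libraries of all groups), ranging from 44.7 to 105. SELT followed at 46.8 ± 8.55, and these 2 ranges overlapped. SEPHS2 had 23.1 ± 2.97 and SEPHS1 18.2 ± 3.06. SELK had 13.4 ± 2.99 CPM per kilobase, SEPW1 8.01 ± 2.66, EEFSEC 6.44 ± 1.35 and SECISBP2 5.66 ± 1.23. The tRNA enzymes were lowest, PSTK at 1.35 ± 0.299 and SEPSECS at 1.34 ± 0.214. Neighbours in this order overlapped over the 6 libraries, except at 2 steps. Every SELT value (37.1 or more) was above every SEPHS2 value (26.7 or less), and every SECISBP2 value (3.73 or more) above every PSTK value (1.64 or less). The deposited length is 1 value a gene, and which transcripts these cells expressed was not determined. SELT and PSTK, which stand at these steps, also overlap genes on the opposite strand.

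Some other selenoproteins passed the test. Of 20 further selenoprotein genes, 14 were tested, and 5 rose with pimasertib against DMSO, where 11.1% of all tested genes rose. None fell, and the median log2 fold change was 0.26, beside 0.00 over all tested genes. SELM, an endoplasmic reticulum selenoprotein, had 52.8 and 60.8 CPM with pimasertib, 10.1 and 17.5 CPM with palbociclib, and 4.19 and 6.42 CPM in DMSO. It rose with pimasertib by a log2 fold change of 3.42 ± 0.32 (adjusted p = 9.88e-05, edgeR). GPX4, which reduces lipid peroxides in membranes, had 170 and 165 CPM with pimasertib, 63.7 and 84.7 CPM with palbociclib, and 33.0 and 53.8 CPM in DMSO. The log2 fold change of GPX4 was 1.95 ± 0.27 with pimasertib (adjusted p = 0.000848, edgeR). DIO2, a thyroid hormone deiodinase, had 142 and 141 counts with pimasertib, 2 and 1 with palbociclib, and 4 and 8 in DMSO, and rose with pimasertib against DMSO (adjusted p = 0.000407, edgeR).

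The other rises with pimasertib were smaller. The cytosolic peroxidase GPX1 had a log2 fold change of 0.80 ± 0.26 (adjusted p = 0.0491, edgeR) and the methionine sulfoxide reductase MSRB1 0.78 ± 0.20 (adjusted p = 0.0213). GPX1 did not pass without DMSO replicate 1 (0.301), pimasertib replicate 1 (0.226) or pimasertib replicate 2 (0.134). MSRB1 did not pass without DMSO replicate 1 (0.0793), DMSO replicate 2 (0.0655), pimasertib replicate 1 (0.142) or pimasertib replicate 2 (0.0502). TXNRD1, the cytosolic thioredoxin reductase, had 0.32 ± 0.28 (adjusted p = 0.442, edgeR). With the replicate number as a term, 7 of the 14 passed with pimasertib, where 44.1% of all tested genes did under that model. The added genes were TXNRD1 (adjusted p = 0.0488, edgeR) and EPT1 (0.00509, lower).

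With palbociclib against DMSO, 1 of the 14 rose, where 1.11% of all tested genes rose. It was SELM, with a log2 fold change of 1.39 ± 0.31 (adjusted p = 0.0375, edgeR). Its adjusted p with palbociclib was 0.165 when palbociclib replicate 2 was left out and 0.108 when DMSO replicate 1 was. Leaving out either pimasertib library, replicate 1 (0.0879) or replicate 2 (0.0965), also ended the call, as did the stricter filter (0.0508) and only the 4 libraries compared (0.114). The log2 fold changes with palbociclib were 0.78 ± 0.26 for GPX4 (adjusted p = 0.149), 0.44 ± 0.26 for GPX1 (adjusted p = 0.416) and 0.16 ± 0.28 for TXNRD1 (adjusted p = 0.829). With the replicate number as a term, GPX4 passed with palbociclib (0.00357), so that 2 of the 14 did, where 19.9% of all tested genes did. Pimasertib against palbociclib called 3 of the 14, all higher, where 5.07% of all tested genes were higher and 4.31% lower: GPX4, DIO2 and SELM. The log2 fold change between the drugs was 1.17 ± 0.26 for GPX4 (adjusted p = 0.0191) and 2.03 ± 0.30 for SELM (adjusted p = 0.00188). GPX4 between the drugs did not pass without palbociclib replicate 1 (0.0777), pimasertib replicate 1 (0.109) or pimasertib replicate 2 (0.125). Under the model with the replicate number, 4 of the 14 passed between the drugs, where 31.7% of all tested genes did. The added gene was MSRB1 (adjusted p = 0.00162, edgeR).

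**Figure D4:**
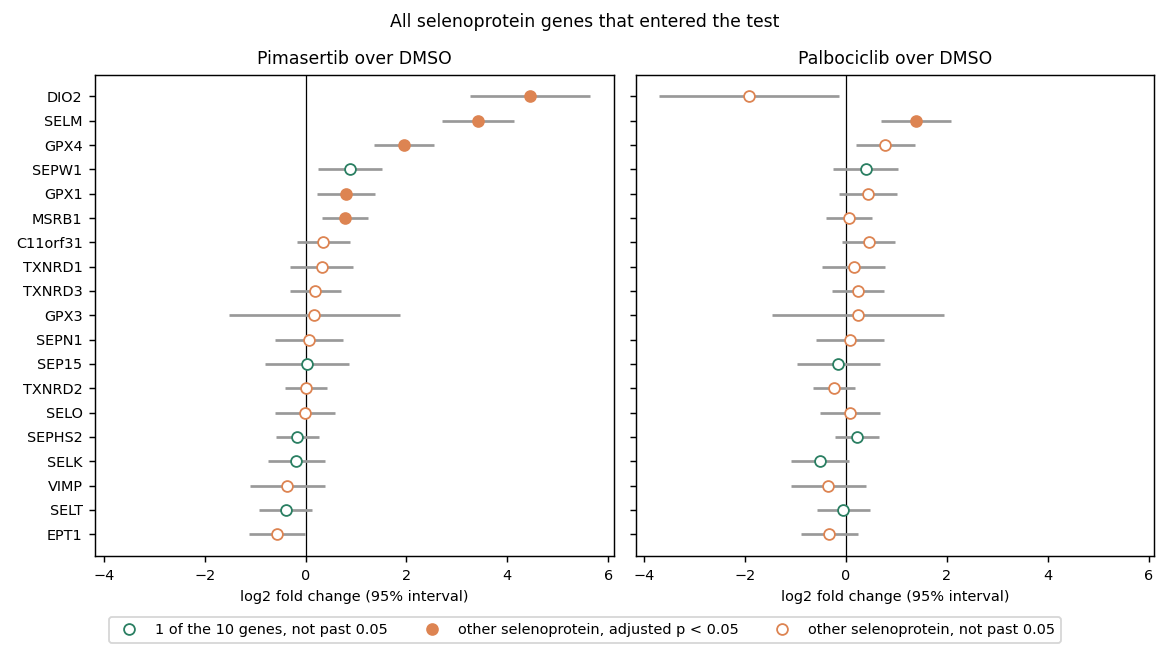
Log2 fold change with its 95% interval of the 19 selenoprotein genes that entered the test, with pimasertib over DMSO (left) and palbociclib over DMSO (right), and filled points past the adjusted threshold. The 5 genes among the 10 described here have open points in both panels, while SELM is filled in both.

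Of 14 other genes of selenocysteine tRNA, SECIS decoding and selenium supply, 13 were tested. With pimasertib against DMSO, 4 fell, where 11.7% of all tested genes fell, and none rose. The median log2 fold change was -0.55, beside 0.00 over all tested genes. ALKBH8, which modifies the wobble base of the selenocysteine tRNA, had 24.4 and 15.3 CPM with pimasertib, 44.1 and 28.7 CPM with palbociclib, and 50.1 and 40.7 CPM in DMSO. ALKBH8 fell with pimasertib by 1.19 on the log2 scale (SE 0.29, adjusted p = 0.0146, edgeR), and did not pass without pimasertib replicate 2 (0.147).

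The 3 others act on many RNAs besides those of selenoproteins. ELAVL1, an RNA-binding protein, fell by 0.86 on the log2 scale (SE 0.19, adjusted p = 0.0111, edgeR). NCL, the nucleolar protein nucleolin, fell by 0.97 (SE 0.28, adjusted p = 0.0322). TGS1, which methylates the existing cap of small RNAs, fell by 0.73 (SE 0.24, adjusted p = 0.0486) and overlaps TMEM68 on the opposite strand. ELAVL1 did not pass without DMSO replicate 1 (0.0518), pimasertib replicate 1 (0.0716) or pimasertib replicate 2 (0.0864). NCL did not pass without DMSO replicate 1 (0.211), pimasertib replicate 1 (0.0781) or pimasertib replicate 2 (0.251). TGS1 did not pass with RLE scaling (0.0548), raw library totals (0.0615), or when pimasertib replicate 1 (0.0704) or 2 (0.309), palbociclib replicate 2 (0.0541) or DMSO replicate 1 (0.357) was left out. It also missed with the stricter filter (0.0545) and with only the 4 libraries compared (0.0511).

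With the replicate number as a term, 7 of these 13 passed with pimasertib, where 44.1% of all tested genes did under that model. The added genes were EIF4A3 (adjusted p = 0.00234, edgeR), CELF1 (0.000822) and LRP8 (0.000523), all lower. With palbociclib 6 passed, where 19.9% of all tested genes did, and all were lower. They were EIF4A3 (adjusted p = 0.0220), NCL (0.0135), CELF1 (0.0135), ELAVL1 (0.00984), SCLY (0.0407) and LRP8 (0.00765). Between the drugs 4 passed, where 31.7% of all tested genes did: TRNAU1AP (adjusted p = 0.0290) and SCLY (0.0315) higher with pimasertib, and NCL (0.00737) and ALKBH8 (0.000694) lower.

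Without that term the test called none of the 13 with palbociclib against DMSO (edgeR), with 4 at an unadjusted p under 0.05 (18% of all tested genes) and 0 by DESeq2. It called none between the drugs, with 3 at an unadjusted p under 0.05 (24.7% of all tested genes) and 0 by DESeq2. TRNAU1AP, which binds the selenocysteine tRNA, had a log2 fold change of 0.50 ± 0.36 with pimasertib (adjusted p = 0.342, edgeR) and -0.32 ± 0.36 with palbociclib (adjusted p = 0.707). SARS, which loads serine on that tRNA, had 0.03 ± 0.23 with pimasertib (adjusted p = 0.943) and 0.29 ± 0.23 with palbociclib (adjusted p = 0.571).

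Among 8 partners of SEP15 and SELK in the endoplasmic reticulum, 1 was called. ZDHHC6, the partner of SELK, had 29.4 and 38.2 CPM with pimasertib, 20.8 and 24.9 CPM with palbociclib, and 40.0 and 56.9 CPM in DMSO. ZDHHC6 fell with palbociclib by 1.08 on the log2 scale (SE 0.24, adjusted p = 0.0382, edgeR), where 2.44% of all tested genes fell. That call was lost when either palbociclib library (0.0770 without replicate 1, 0.0633 without replicate 2), either pimasertib library (0.0659 and 0.0737) or DMSO replicate 2 (0.111) was left out. It was also lost with the stricter filter (0.0522) and with only the 4 libraries compared (0.0756). With pimasertib none of the 8 passed (edgeR), with 1 at an unadjusted p under 0.05 (36.5% of all tested genes) and 1 by DESeq2, and ZDHHC6 had -0.52 ± 0.24 (adjusted p = 0.146). Between the drugs none passed, with 2 at an unadjusted p under 0.05 (24.7% of all tested genes) and 1 by DESeq2. With the replicate number as a term, 5 of the 8 passed with pimasertib (44.1% of all tested genes), 1 with palbociclib (19.9%) and 5 between the drugs (31.7%). Under that model UGGT2 (log2 fold change 0.77), SEL1L (0.67) and SYVN1 (0.42) were higher with pimasertib against DMSO, and ZDHHC6 (-0.51) and VCP (-0.34) lower. Between the drugs UGGT2, ZDHHC6, DERL2, SYVN1 and SEL1L were all higher with pimasertib. The adjusted p of ZDHHC6 with pimasertib against DMSO was 0.0101 in that model (edgeR). Of 4 homologs with cysteine in place of selenocysteine, 3 were tested and none passed in any comparison (edgeR), and DESeq2 called 0 in each. At an unadjusted p under 0.05 there was 1 with pimasertib (36.5% of all tested genes), 0 with palbociclib (18%) and 2 between the drugs (24.7%). Under the model with the replicate number, 1 of the 3 passed with pimasertib (44.1% of all tested genes), 0 with palbociclib (19.9%) and 1 between the drugs (31.7%). They were MSRB2 with pimasertib (adjusted p = 0.0209, edgeR) and GPX8 between the drugs (0.00164).

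Selenoprotein genes that rose were found with the UGA on either side of a 50-base limit before the last exon junction. In SEPW1 the codon lies 243 bases before the last exon junction of the transcript, in SELT 470 and in SEP15 78, while in SELK it lies 5 bases before it. Of the 19 tested selenoproteins, 10 have the first UGA more than 50 bases before that junction, and 3 of these rose with pimasertib. The other 9 have it nearer, after the junction, or have no junction, as SEPHS2, and 2 of these rose. Of all tested genes 11.1% rose with pimasertib. The median log2 fold change with pimasertib was 0.26 over the 10 and -0.01 over the 9, with ranges of -0.40 to 3.42 and -0.57 to 4.45. With palbociclib the medians were 0.31 and 0.06. Over all tested genes the median was 0.005 with pimasertib and 0.005 with palbociclib. These are descriptions with no test, and the grouping was chosen after values had been seen.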

How the data were processed

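RNA-seq of 6 libraries was analysed, 2 each for pimasertib, palbociclib and DMSO. The authors deposited 1 table per drug with raw counts per gene, FPKM values (not used here), a normalized signal averaged per group (not used here), and, per the file headers, the results of their own tests against DMSO as log2 fold changes with raw and adjusted p-values. STAR 2.5, HTSeq 0.6.1, CASAVA, DESeq2 and the build hg19 (GRCh37) are named in the submitters' processing notes, without settings. The deposited log2 values and p-values were used only where the authors' table is named.

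The tables shared 22559 of 26286 genes, with identical DMSO counts. Where only 1 table listed a gene, its DMSO counts were 0 and the missing counts were set to 0. The test was run in edgeR 4.0.16 (R 4.3.3) on the counts as deposited: filterByExpr (minimum count 10, minimum total 15), TMM scaling, and 1 quasi-likelihood model of 3 groups over all 6 libraries (robust). SE is the absolute log2 fold change over the square root of F. Depth limits the precision through 13607490 to 17500655 counts a library; floors of 3 counts cover counting error only. The steps were tested on simulated counts drawn independently for each library. These held no effect shared by same-numbered libraries, so that test does not cover such an effect.

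Same-numbered libraries deviated together: over 14839 genes their deviations correlated at 0.351 (pimasertib and DMSO), 0.397 (palbociclib and DMSO) and 0.345 (pimasertib and palbociclib). The labels do not say what a number marks. A model with the number as a term was an alternative, and its value or count stands where it changed a call. Other alternatives were DESeq2 1.42.0, RLE scaling, raw totals, no filter, a minimum count of 50, only the 4 libraries compared, and leaving out each library. The genes and lists were chosen with earlier results of these data known. Besides the 10 genes, every gene of the 4 lists that passed the threshold and GPX4, TXNRD1, GPX1, TRNAU1AP and SARS were named. Genes that passed only with the number as a term were named after their values were seen. Genes of like pattern were to be named for called genes only, and there were none.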

Additional observations from a re-analysis of the deposited data

How the results depend on the processing

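Under 13 other settings the calls at the adjusted threshold were recounted for all tested genes, the 10 genes, the other synthesis genes and the other selenoproteins. Of all tested genes, pimasertib against DMSO called 6551 with the replicate block. Palbociclib against DMSO called 1097 with no filter on low counts, 325 with the 4 libraries of the comparison, 2953 with the replicate block and 882 with DESeq2. Pimasertib against palbociclib called 2256 with no filter and 4702 with the replicate block. Leaving out 1 library gave 1055 to 4082 with pimasertib against DMSO, 334 to 762 with palbociclib against DMSO and 456 to 1941 with pimasertib against palbociclib. Of the 10 genes, pimasertib against DMSO called 1 (SEPW1) with RLE scaling, raw totals, no filter, the stricter filter, the 4 libraries and DESeq2, 3 with the replicate block, and 0 to 1 without 1 library. Palbociclib against DMSO called 1 with the replicate block and 0 to 0 without 1 library. Pimasertib against palbociclib called 1 with the replicate block and 0 to 1 without 1 library. The block changed no other call among the 10 genes. The cause of these shifts was not tested. With the replicate block, 44.1% of all tested genes passed in pimasertib against DMSO. It was 19.9% in palbociclib against DMSO and 31.7% in pimasertib against palbociclib. For the other settings no share of all tested genes is given, here or for the lists in the next paragraph. The counts under those settings are therefore not set against all tested genes.

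Of the other synthesis genes, pimasertib against DMSO called 7 with the replicate block and 0 to 5 without 1 library. Palbociclib against DMSO called 6 with the block and 0 to 0 without 1 library. Pimasertib against palbociclib called 1 with no filter, 1 with the 4 libraries, 4 with the block and 0 to 2 without 1 library. Of the other selenoproteins, pimasertib against DMSO called 3 to 5 without 1 library. Palbociclib against DMSO called 2 with no filter, 0 with the stricter filter, 0 with the 4 libraries, 2 with the block and 0 to 2 without 1 library. Pimasertib against palbociclib called 2 to 4 without 1 library.

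The log2 fold change turned sign in some setting for 10 of 30 values. With pimasertib against DMSO, leaving out 1 library gave -0.21 to 0.45 for PSTK, -0.47 to 0.76 for SEP15 and -0.41 to 0.058 for SELK. With palbociclib against DMSO it gave -0.12 to 0.77 for SEPW1, -0.64 to 0.59 for SEP15 and -0.26 to 0.14 for SELT. With pimasertib against palbociclib it gave -0.45 to 0.31 for SECISBP2, -0.26 to 0.14 for EEFSEC, -0.64 to 0.0080 for PSTK and -0.14 to 0.58 for SEP15. SECISBP2 between the drugs was 0.024 with the stricter filter.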
